A study of Mus musculus with 2 samples.

Results

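The genes of the nuclear pore and of nuclear transport were described in embryonic mouse forebrain. The protein-coding genes whose symbols mark them as nucleoporins (Nup and Nupl), importin alpha subunits (Kpna), importin beta proteins (Kpnb and Ipo) or exportins (Xpo, with Xpo5 left out) were taken from the table built on GENCODE release M21. This gave 42 genes, of 22028 protein-coding genes and 55536 genes in all, on 15 chromosomes. The tissue was forebrain of B6NCrl mouse embryos, both sexes mixed, at embryonic day 12.5, and its polyA-plus RNA was sequenced in 2 libraries labelled as biological replicates. Pool 1 joined tissue from 120 embryos and pool 2 tissue from 68 embryos, so each value is an average over many animals and over every cell type in the tissue. Each library started from 10 ng of RNA extracted with Ambion mirVana and carried ERCC spike-in RNAs, and its cDNA was fragmented by Nextera tagmentation. Neither pool carried a treatment or an allele, and there was no second condition, so the genes are given as levels with their spread over the pools.

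The nuclear pore is a ring-shaped channel through the nuclear envelope. Scaffold nucleoporins (the Y complexes and the inner ring) hold its shape, and nucleoporins rich in phenylalanine-glycine (FG) repeats fill the channel and let transport receptors pass. Importin beta proteins carry cargo inward, some of them through an importin alpha adaptor that reads the nuclear localisation signal, exportins carry cargo outward, and the small GTPase Ran sets the direction. In mouse embryonic stem cells, a switch among importin alpha subtypes has been described during neural differentiation.

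Sequence is shown for 2 pairs of relatives at opposite ends of the range of levels. Each is the stretch of 250 bases before a RefSeq transcription start, 5′ to 3′ on the gene's strand, with CG dinucleotides in capitals. The windows are from RefSeq on GRCm38.p6, and each start lies within 16 bases of the start of an M21 transcript. The transcript matched at the Nup62 start, Nup62-205, was given 0 reads in both pools. The level of Nup62 lay mainly in Nup62-203 and Nup62-201. Other M21 transcripts begin further upstream in both low genes, so that the whole Kpna7 stretch and 144 bases of the Nup62cl stretch lie inside the M21 gene. The importin alpha pair is Kpna2 (chr11:106999526-106999775, minus strand), the highest of the 42 genes, and Kpna7 (chr5:145009637-145009886, minus strand), which had no read. The nucleoporin pair is Nup62 (chr7:44815838-44816087, plus strand) and its relative Nup62cl (chrX:140062569-140062818, minus strand).
Kpna2: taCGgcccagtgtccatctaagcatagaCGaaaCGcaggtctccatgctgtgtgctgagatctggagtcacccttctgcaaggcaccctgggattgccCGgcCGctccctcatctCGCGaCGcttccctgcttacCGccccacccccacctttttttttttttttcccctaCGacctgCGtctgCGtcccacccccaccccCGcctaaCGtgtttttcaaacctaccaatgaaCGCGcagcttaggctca
Kpna7: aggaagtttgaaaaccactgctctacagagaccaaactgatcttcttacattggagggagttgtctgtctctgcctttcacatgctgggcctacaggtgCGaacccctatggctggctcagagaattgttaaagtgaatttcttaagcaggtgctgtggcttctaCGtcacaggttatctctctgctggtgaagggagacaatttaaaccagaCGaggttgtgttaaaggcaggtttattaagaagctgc
Nup62: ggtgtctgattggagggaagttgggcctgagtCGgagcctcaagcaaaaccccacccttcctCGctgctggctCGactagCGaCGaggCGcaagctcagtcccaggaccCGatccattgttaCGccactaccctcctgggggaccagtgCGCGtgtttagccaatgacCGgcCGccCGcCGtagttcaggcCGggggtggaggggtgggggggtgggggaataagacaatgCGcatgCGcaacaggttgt
Nup62cl: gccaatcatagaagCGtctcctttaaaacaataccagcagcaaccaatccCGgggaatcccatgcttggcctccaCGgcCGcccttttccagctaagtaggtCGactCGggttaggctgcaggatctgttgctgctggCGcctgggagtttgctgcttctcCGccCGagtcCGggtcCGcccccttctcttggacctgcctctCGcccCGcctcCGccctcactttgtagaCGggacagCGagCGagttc
The Kpna2 stretch held 16 CG and the Kpna7 stretch 3. The Nup62 and Nup62cl stretches held 17 each, although the levels of these genes differed 26.8-fold.

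Depth was similar in both libraries, with 33373843 estimated reads assigned to genes in pool 1 and 34406648 in pool 2. The 5 forebrain markers used (such as Emx1 and Lhx2) were all detected, and none of the 6 midbrain and hindbrain markers reached 1 TPM (transcripts per 1e6 transcripts). Genes of red blood cells were present and unequal, with a summed level of 10022 TPM in pool 1 and 13561 TPM in pool 2. The summed level of the 5 mesenchyme markers was 634.5 TPM in pool 1, against 770.2 TPM in pool 2. Markers of cycling cells and of neurons, 5 each, were all detected.

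Nearly all of the pore and transport genes were in use. Of the 42 genes, 39 had at least 1 TPM in both pools, against 58.9% of all protein-coding genes, and 38 had at least 10 TPM in both, against 40.2%. Their median was 47.83 TPM (49.8 TPM in pool 1 and 46.5 TPM in pool 2), compared with 4.08 TPM over all protein-coding genes and 21.9 TPM over the detected ones. The median member stood at percentile 83.4 of protein-coding genes. Mean levels were above 100 TPM for 6 genes, between 50 and 100 TPM for 14 and between 10 and 50 TPM for 18. Together the genes made up 2737 TPM in pool 1 and 2628 TPM in pool 2. The pools were close to each other, with a median coefficient of variation of 4.92% over the detected genes. In the order of mean levels, 22 of the 41 pairs of neighbours had overlapping values over the pools, so much of the middle of the order cannot be ranked. Across the 39 detected genes, level and effective transcript length had a Spearman correlation of -0.30, given as a description because the genes share their libraries. Effective length also enters the TPM, so part of a negative correlation can arise by construction.

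**Figure D1:**
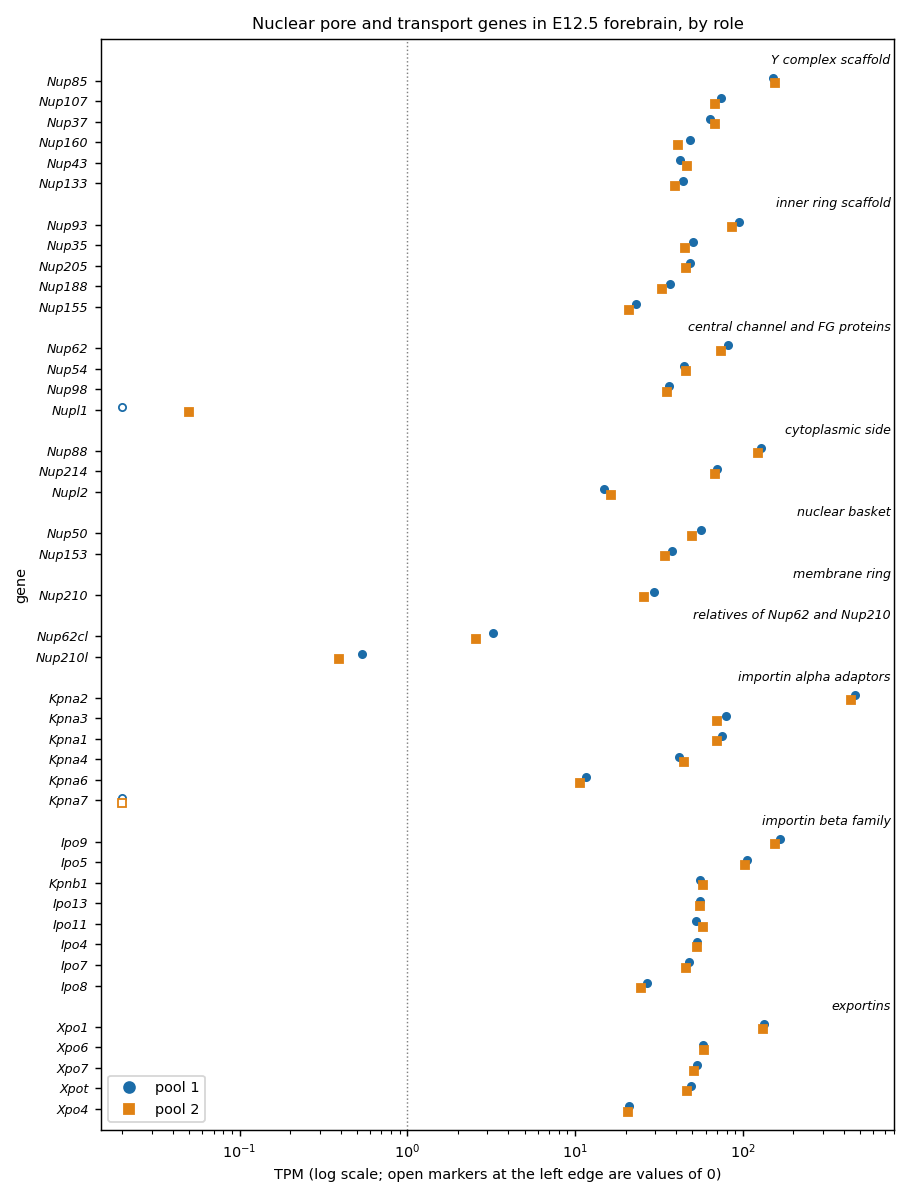
TPM (log scale) of each of the 42 genes in pool 1 (circles) and pool 2 (squares), grouped by role; the dotted line marks 1 TPM and open markers at the left edge are values of 0. Most genes lie between 10 and 167 TPM in both pools, with Kpna2 above them and Nupl1, Kpna7, Nup62cl and Nup210l below.

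The Y complex, the outer scaffold that coats both faces of the pore, was present in all 6 of its measured members, with a median of 55.3 TPM. Nup85, a subunit of its short arm, had 151.6 TPM in pool 1 and 155.4 TPM in pool 2 (mean 153.5 ± 2.68, SD, n = 2). Nup107, in the stem, had 74.4 TPM in pool 1 and 68.5 TPM in pool 2. Nup37, a small beta-propeller subunit of vertebrate Y complexes, had 63.5 TPM in pool 1 and 68.1 TPM in pool 2. The remaining members were lower and close together, so that their order is not resolved. Nup160 had 48.7 TPM in pool 1 and 40.9 TPM in pool 2, Nup43 had 42.1 TPM in pool 1 against 46.8 TPM in pool 2, and Nup133 had 43.9 TPM in pool 1 against 39.4 TPM in pool 2. Levels therefore spanned 3.69-fold from Nup85 to Nup133 among subunits of 1 complex. Counting protein-coding transcripts alone, the span of the 6 genes was 25.7 to 92.1 TPM, with Nup85 still highest. The partners Sec13 and Seh1l, listed apart because their symbols lack the Nup prefix, had means of 182.4 and 75.8 TPM.

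The inner ring, which joins the membrane to the channel, had a median of 47.1 TPM over 5 members. Nup93, the organiser of the ring, had 94.3 TPM in pool 1 and 86.2 TPM in pool 2 (mean 90.3 ± 5.74, SD, n = 2). Nup35 had 50.4 TPM in pool 1, against 45.5 TPM in pool 2, and it binds both membrane and other ring subunits. Nup205 had 48.4 TPM in pool 1 and 45.9 TPM in pool 2. Its large structural relative Nup188 was lower, with 36.6 TPM in pool 1, against 33.1 TPM in pool 2, and its values did not overlap those of Nup205. Nup155, another scaffold subunit, was the lowest, with 23.2 TPM in pool 1, against 20.9 TPM in pool 2, and Nup93 was 4.10-fold above it. The membrane ring was represented by Nup210, a transmembrane glycoprotein, with 29.6 TPM in pool 1 and 25.6 TPM in pool 2. Of the other transmembrane pore proteins listed, Tmem33 had a mean of 85.9 TPM, Ndc1 of 30.8 TPM and Pom121 of 19.7 TPM, so membrane proteins of the pore spanned both high and low levels.

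In the central channel, Nup62, the FG protein after which its complex is named, had 81.6 TPM in pool 1 and 74.0 TPM in pool 2. Nup54, its partner, had 44.7 TPM in pool 1 and 45.7 TPM in pool 2. Nup98 encodes a precursor that is cleaved into the FG protein Nup98 and the Y complex subunit Nup96, and it had 36.5 TPM in pool 1 and 35.4 TPM in pool 2. The third partner of Nup62 and Nup54 is Nup58, whose gene has the symbol Nupl1 here. Nupl1 had 0 TPM in pool 1 and 0.05 TPM in pool 2, with an estimated count of 0 in pool 1 and of 3.81 in pool 2.

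The near absence of Nupl1 went with where the annotation put its coding transcript. In M21 the gene Nupl1 (ENSMUSG00000063895.7, chr14:60184612-60251431, GRCm38, minus strand) holds 1 transcript, Nupl1-201, classed as a target of nonsense-mediated decay. It runs on into the region of Atp8a2, the next gene downstream. A second gene record over the same exons, Gm49336 (chr14:60205282-60251507), had 60.1 TPM in pool 1 and 56.5 TPM in pool 2 (mean 58.3 ± 2.59, SD, n = 2). Its leading transcript, Gm49336-201, held 74.3% of that level and has the identifier that the older M4 table counted under Nupl1. The M4 model was shorter, with 2787 bases against 3913 in M21. Gm49336-201 and Nupl1-201 share a run of 1756 identical bases up to the end of exon 14 and part there. The 90 bases around that point are shown for Gm49336-201, and the bases up to the stop codon for Nupl1-201, with the bases after the junction in capitals (GENCODE M21 transcripts, exon 14 at chr14:60221583-60221678).
Gm49336-201: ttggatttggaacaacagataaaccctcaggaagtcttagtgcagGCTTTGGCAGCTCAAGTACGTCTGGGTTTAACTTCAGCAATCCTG
Nupl1-201: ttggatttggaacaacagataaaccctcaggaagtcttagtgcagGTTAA
Past the junction, Gm49336-201 keeps its reading frame within exon 15, whereas Nupl1-201 reaches the stop codon TAA within 5 bases. Under M4, Nupl1 had 49.2 TPM in pool 1 and 47.9 TPM in pool 2, from 2663 reads in pool 1 and 2703 in pool 2. With Gm49336 counted in, 40 of the 42 genes were detected.

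The 3 genes of the cytoplasmic side had a median of 69.4 TPM, or 22.5 TPM in protein-coding transcripts only. Nup88, a partner of Nup214 that holds the mRNA export platform, had 127.5 TPM in pool 1 and 123.5 TPM in pool 2. Nup214 itself had 70.4 TPM in pool 1 and 68.4 TPM in pool 2. Nupl2, the gene of an FG protein that binds the export factor Gle1, was the lowest of the 3, with 14.9 TPM in pool 1 and 16.4 TPM in pool 2. Of the nuclear basket, Nup50, a co-factor of importin alpha release, had 56.6 TPM in pool 1 and 50.1 TPM in pool 2. Nup153, the FG protein that anchors the basket, had 37.9 TPM in pool 1 and 34.2 TPM in pool 2. Tpr, the basket filament itself, was not among the 42 genes and had a mean of 150.8 TPM.

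Both relatives of pore proteins in the set were low. Nup62cl, a Nup62-like gene on chromosome X, had 3.24 TPM in pool 1 and 2.56 TPM in pool 2, from 120 reads in pool 1 and 87 in pool 2. Nup210l, a relative of Nup210 known from testis, had 0.54 TPM in pool 1 and 0.39 TPM in pool 2, from 64 reads in pool 1 and 49 in pool 2. Nup62 was 26.8-fold above Nup62cl and Nup210 was 59.3-fold above Nup210l.

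The importin alpha adaptors were dominated by 1 gene. Kpna2 had 467.6 TPM in pool 1 and 443.8 TPM in pool 2 (mean 455.7 ± 16.9, SD, n = 2). It was at percentile 98.9 of protein-coding genes. It held 17.0% of the summed level of all 42 genes, and 69.3% ± 0.129 (SD, n = 2) of that of the 6 importin alpha genes. Kpna3 had 79.6 TPM in pool 1 and 70.1 TPM in pool 2. Kpna1 had 75.1 TPM in pool 1, against 70.6 TPM in pool 2, and its values overlapped those of Kpna3. Kpna4 had 41.5 TPM in pool 1 and 44.3 TPM in pool 2. Kpna6 was the lowest detected adaptor, with 11.6 TPM in pool 1, against 10.6 TPM in pool 2, and Kpna2 was 40.9-fold above it. Kpna7, an adaptor known from oocytes and early embryos, had 0 reads in both pools. An upper limit of 3 reads, at the gene's effective length, would be 0.114 TPM in pool 1 and 0.109 TPM in pool 2. A shorter transcript would raise that limit, and the deposited posterior mean TPM was 0.35 in pool 1 and 0.33 in pool 2. Such limits and the intervals below cover at most counting error, and hold no spread between embryos or library preparations. PCR copies cannot be told from separate molecules here, so the intervals can be too narrow even for counting error.

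Kpna2 shares nearly all of its sequence with other loci. The gene Gm10184 on chromosome 17, annotated as protein-coding, matched 1968 bases of the leading transcript Kpna2-201 at 99.9% identity. Gm10184 was given 81.0 TPM in pool 1 and 81.2 TPM in pool 2. It took 14.5% of the reads shared out between both genes in pool 1 and 15.2% in pool 2, but under M4 it took 7.47% in pool 1 and 8.26% in pool 2, so the division between them depended on the annotation. Another 11 processed pseudogenes matched Kpna2-201, the highest with a mean of 2.94 TPM. A transcript of Med20, a Mediator subunit gene, matched 1891 bases at 92.6% identity. Med20 had 32.4 TPM in pool 1 and 30.1 TPM in pool 2 over all its transcripts. These were not added. With Gm10184 and the pseudogenes added, Kpna2 had 552.7 TPM in pool 1, against 529.9 TPM in pool 2. Kpna2 was the highest of the 42 genes in either case, and its exact level is uncertain.

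The importin beta family was detected in all 8 members, with a median of 55.4 TPM. Ipo9, an importer of core histones, had 166.9 TPM in pool 1 and 154.9 TPM in pool 2. Ipo5, an importer of ribosomal proteins and histones, had 106.3 TPM in pool 1 and 102.4 TPM in pool 2. Kpnb1, the importin beta that partners importin alpha, was lower than both, with 55.6 TPM in pool 1 and 57.8 TPM in pool 2. Its level over all transcripts overlapped those of Ipo13 and Ipo11. Ipo13, a receptor that works in both directions, had 55.7 TPM in pool 1, against 55.4 TPM in pool 2, and Ipo11 had 52.2 TPM in pool 1 against 58.0 TPM in pool 2. Ipo4 had 53.5 TPM in pool 1, against 53.6 TPM in pool 2. It shares 2310 bases at 100% identity with the overlapping gene Gm49378, given 293.7 estimated reads in pool 1 and 217.7 in pool 2. The exact level of Ipo4 therefore depends on how reads were shared out. Ipo7 had 47.7 TPM in pool 1 against 45.9 TPM in pool 2. Ipo8, a close relative of Ipo7, was the lowest, with 27.0 TPM in pool 1 and 24.8 TPM in pool 2. Ipo7 and Ipo8 did not overlap, and Ipo9 was 6.22-fold above Ipo8. In protein-coding transcripts only, Ipo9 was 3.03-fold above Ipo8, and Ipo5 (103.7 TPM) stood above Ipo9 (67.4 TPM). Kpnb1 (51.9 TPM) stood above Ipo11 (42.7 TPM) and Ipo13 (39.3 TPM) in those transcripts, without overlap.

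The 5 exportins were all detected, with a median of 52.4 TPM, or 30.75 TPM under M4. Xpo1, the exporter of proteins with leucine-rich export signals, led with 133.8 TPM in pool 1 and 132.5 TPM in pool 2. Xpo6, the exporter of actin, had 58.1 TPM in pool 1 and 58.5 TPM in pool 2. Xpo7 had 53.6 TPM in pool 1 and 51.1 TPM in pool 2. Xpot, the exporter of transfer RNAs, had 49.2 TPM in pool 1 and 46.2 TPM in pool 2. Xpo4 was the lowest, with 20.9 TPM in pool 1, against 20.6 TPM in pool 2, and Xpo1 was 6.42-fold above it. In protein-coding transcripts only, that gap was 12.6-fold, and under M4 Xpo7 (18.4 TPM) was below Xpo4 (21.7 TPM). Cse1l, the exporter that returns importin alpha to the cytoplasm, is counted among the other transport factors and had a mean of 140.9 TPM.

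The rest of the pathway was detected throughout. All 11 further pore proteins were detected, from 19.7 TPM (Pom121) to 182.4 TPM (Sec13), with Tpr second. All 6 further transport receptors were detected, led by Cse1l (140.9 TPM) and Tnpo3 (94.3 TPM), the importer of splicing factors, with Ranbp17 lowest at 10.0 TPM. All 10 genes of the Ran cycle and mRNA export were detected. Ranbp1, a co-activator of GTP hydrolysis by Ran, had 786.7 TPM in pool 1, against 769.8 TPM in pool 2, and Ran had 681.1 TPM in pool 1 and 642.6 TPM in pool 2. Both were above Kpna2 in each pool. Ddx19b, an RNA helicase of mRNA export, was the lowest of these at 8.80 TPM.

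Several of the levels were set in part by short or non-coding transcripts. Over the 39 detected genes, a median of 87.2% of the TPM lay in transcripts annotated as protein-coding, and a median of 95.5% of the estimated reads. The share of TPM was at least 90% in 18 genes and below 50% in 5, namely Nup214, Ipo9, Xpo6, Nupl2 and Xpo4. In 10 genes, more than 20% of the TPM lay in transcripts shorter than 1000 bases, where few reads make a high TPM. These shares were not computed over all protein-coding genes, so the counts do not set the members apart from other genes. The lowest share of TPM in coding transcripts was that of Nup214, whose highest transcript, Nup214-207, is a retained-intron fragment of 738 bases. It had 31.1 TPM in pool 1 and 29.5 TPM in pool 2, 43.6% of the gene's TPM but 16.1% of its reads. The full-length coding transcript Nup214-201 (6605 bases) held 67.9% of the reads and had 13.4 TPM in pool 1 and 11.8 TPM in pool 2. In protein-coding transcripts alone, Nup214 had 22.8 TPM in pool 1, against 22.2 TPM in pool 2, and its place among the 42 genes was 33 rather than 12. Xpo6 stood at place 30 rather than 14, with 27.1 TPM in pool 1 and 25.4 TPM in pool 2. Ipo9 stood at place 10 rather than 2, with 71.2 TPM in pool 1 and 63.6 TPM in pool 2. Of its full TPM, 24.9% lay in Ipo9-208, a transcript classed for nonsense-mediated decay. Nup85 had 90.4 TPM in pool 1 and 93.8 TPM in pool 2 in protein-coding transcripts. Kpna2 stood first in either ranking. The source of the reads in these short transcripts was not tested.

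**Figure D2:**
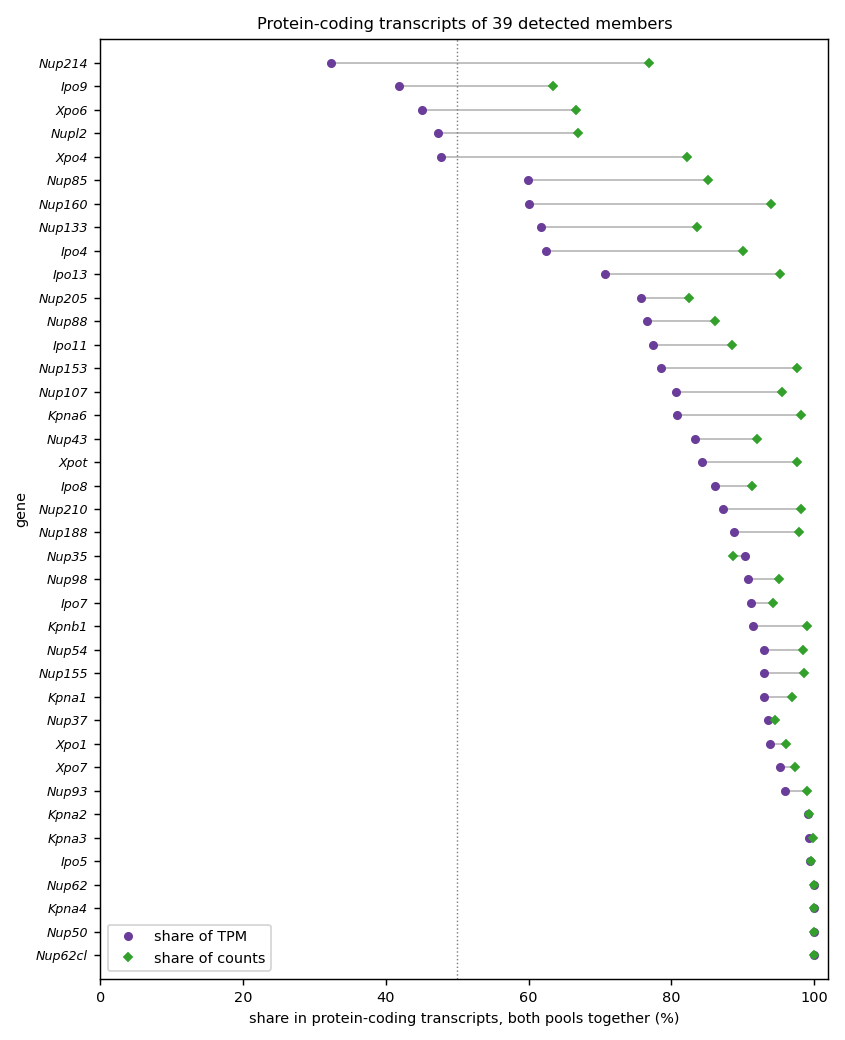
Share of each detected gene's TPM (circles) and of its estimated reads (diamonds) in protein-coding transcripts, both pools together, for 39 genes sorted by the share of TPM. Nup214 has the lowest share of TPM, 32.3%, against 76.9% of reads, and the dotted line marks 50%.

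Transcript use was mostly concentrated. The leading transcript held a median of 78.8% of a gene's TPM and was protein-coding in 38 of the 39 genes, Nup214 being the exception. Leading transcripts of all protein-coding genes were not computed for comparison. Xpo1 was spread over several coding forms. Its leading transcript Xpo1-201 had 56.7 TPM in pool 1 against 39.95 TPM in pool 2. Xpo1-203 had 42.9 TPM in pool 1 and 40.3 TPM in pool 2, whereas Xpo1-204 had 11.1 TPM in pool 1 and 32.2 TPM in pool 2. The gene's total was nearly equal in both pools, so the estimated split between Xpo1-201 and Xpo1-204 varied far more than the gene. In Nup62, Nup62-203 had 51.8 TPM in pool 1, against 49.9 TPM in pool 2, and Nup62-201 had 27.7 TPM in pool 1 against 22.7 TPM in pool 2.

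The choice of annotation moved a few genes. Of 39 genes with at least 10 TPM under either release, 2 were over 1.5-fold higher under M21 than under M4, against 5.27% of all protein-coding genes, and 1 was as much lower, against 1.08%. The lower one was Nupl1. Xpo7 had 52.4 TPM on average under M21 and 18.4 TPM under M4, a ratio of 2.84, from nearly the same reads (5796 under M21 and 5722 under M4 in pool 1). M4 placed 98.9% of its TPM on a transcript of 15118 bases, whereas M21 placed 80.2% on Xpo7-201 of 4472 bases. Xpot was 1.55-fold higher under M21, which added transcripts of 729 and 658 bases, among others, to a single older one. Nup98 was 1.41-fold higher, and here the reads themselves differed, with 4410 in pool 1 under M21 and 2170 under M4. Its leading M21 transcript, Nup98-203 (6694 bases), held 69.7% of the TPM, and the older release had 1 transcript of 4051 bases. The median ratio of M21 to M4 was 0.957 over these genes and 0.952 over all protein-coding genes compared.

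**Figure D3:**
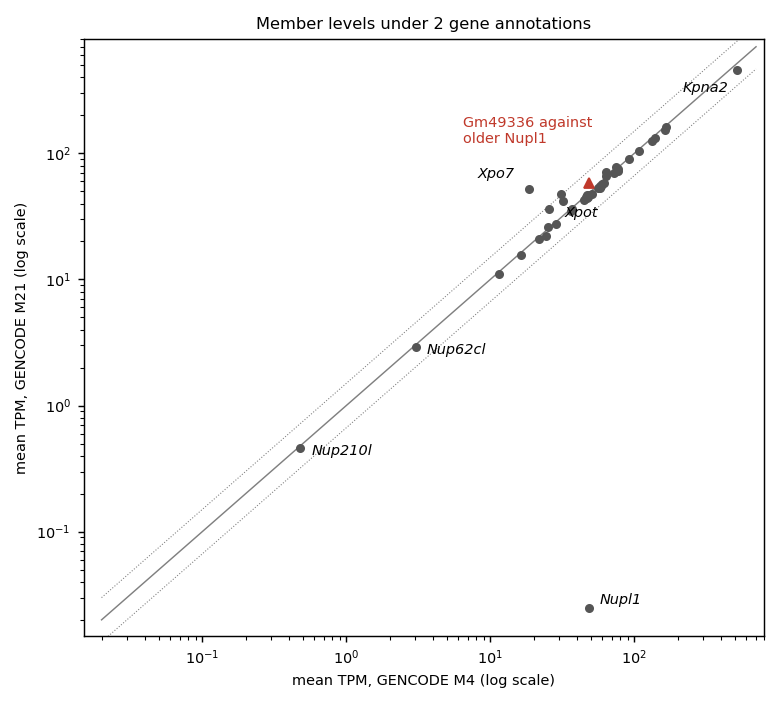
Mean TPM over both pools under GENCODE M21 (vertical) against M4 (horizontal), both on log scales, with the line of equality and dotted lines at 1.5-fold. Nupl1 falls far below the line and Xpo7 and Xpot lie above it; the triangle sets Gm49336 under M21 against Nupl1 under M4.

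The pools differed little in these genes. After TMM scaling (a factor that lines up most genes), 40 members had enough reads to compare, and their median log2 ratio of pool 1 over pool 2 was 0.09, compared with 0.01 over 14805 protein-coding genes. The ratio was above 0 in 30 members, against 53.4% of all genes and 61.8% of the 6135 genes of similar count. The other 10 were below 0, against 46.6% of all genes. A level over 25% higher in pool 1 was found in 2 members (background 6.17%), and a level over 25% higher in pool 2 in 0 members (background 9.9%). These were the low genes Nup62cl (log2 ratio 0.53, 95% Clopper-Pearson interval 0.13 to 0.95) and Nup210l (0.45, interval -0.10 to 1.03). Of the 6135 genes of similar count, 2.92% were over 25% apart in either direction. The shares of all genes include genes with few reads, down to a mean count of 10. No member passed 1.5-fold in either direction, against 2.39% and 4.4% of all genes. For 1.5-fold, the share of genes of similar count was not computed. The typical size of the gap, a median absolute log2 ratio of 0.10, was near the 0.11 of all genes and above the 0.07 of genes of similar count. With 1 library per pool there is no test of a difference between the pools. An exact two-sided sign-flip permutation test over 2 pools could not go below p = 0.5.

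Among the abundant members, Nup188 had the highest ratio (0.25, interval 0.18 to 0.32), and all 5 inner ring genes were higher in pool 1 under TMM scaling, but 2 of 5 under spike-in scaling. Nup43 had the lowest ratio, with 939 reads in pool 1 and 1136 in pool 2 (log2 ratio -0.20, interval -0.33 to -0.07). Nup43 overlaps Pcmt1 on the opposite strand over 11379 bases, and whether counting used strand is not given in the sources used here. Counting intervals lay above 0 in 25 members and below 0 in 2 (Nup43 and Ipo11), and 13 held 0. Intervals were not computed for other genes, so these counts have no background and describe the members only. The direction depended on the scaling. When the pools were scaled to their ERCC spike-ins, the median log2 ratio was -0.15 over all genes and -0.07 over the members. Under that scaling 30 of 40 members were higher in pool 2, within a shift of all genes the same way. The share of all genes higher in pool 2 was not computed for it. Relative to all genes, the members' median was 0.08 higher in pool 1. A change of scaling moves every gene nearly alike, so it cannot test this gap. Genes of similar count had a median of 0.03 under TMM scaling.

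The 6 red cell genes were all lower in pool 1 under either scaling (median log2 ratio -0.44 under TMM scaling), as were the 5 mesenchyme genes (-0.35). All 10 genes of the Ran cycle and mRNA export were higher in pool 1 under TMM scaling (0.09), but 2 of 10 under spike-in scaling. Some of the 5 forebrain markers also differed between the pools, in both directions. Dlx1 had 233.8 TPM in pool 1, against 162.0 TPM in pool 2. The level of Dlx2 was 103.8 TPM in pool 1, against 67.2 TPM in pool 2. Both are transcription factor genes of the ventral forebrain. Emx1, a gene of the dorsal forebrain, had 55.9 TPM in pool 1 against 69.7 TPM in pool 2, and Lhx2 had 152.9 TPM in pool 1 against 175.7 TPM in pool 2. The remaining marker, Pax6, was nearly equal, with 86.0 TPM in pool 1 and 87.2 TPM in pool 2. The part of these tissue differences in the members' ratios was not tested. In bulk tissue, fewer cells of a type and less RNA per cell cannot be told apart.

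**Figure D4:**
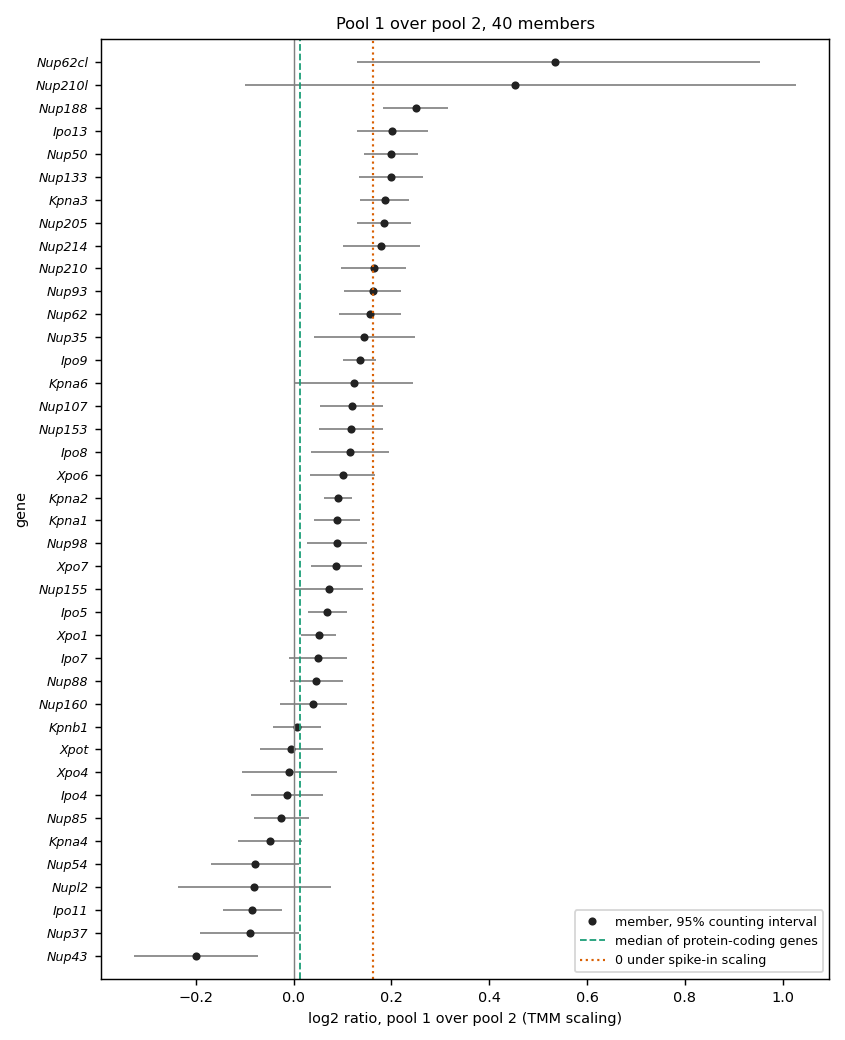
Log2 ratio of pool 1 over pool 2 after TMM scaling for 40 genes, with 95% counting intervals (bars); the dashed line is the median of protein-coding genes and the dotted line shows where 0 falls under spike-in scaling. Nup62cl and Nup210l lie at the top with wide intervals, 30 genes lie above 0 under TMM scaling, and 10 do so under spike-in scaling.

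Promoter windows, from 250 bases before to 50 bases after a RefSeq start, matched 33 of the 42 genes in 38 windows. Kpna1, Kpna3, Kpna6, Nup35, Nup43, Nup85, Nup210l, Xpo4 and Xpo7 were not analysed here. The windows were rich in CpG. The median ratio of observed to expected CpG was 0.90, compared with 0.57 over 21263 windows of protein-coding genes, and 34 of 38 windows exceeded 0.6, against 47.6% of all windows. The 4 below 0.6 were the second windows of Ipo5 and Nup93, the window of Nup160 and that of Kpna7 (0.25). Low level and low CpG did not always go together. Nup62cl, at 2.90 TPM, had a ratio of 0.80, and Nup160, at 44.8 TPM, had 0.31. Of the motifs searched on both strands, CCAAT was in 22 windows (57.9%, against 38.2% of all windows) and GGGCGG in 25 (65.8%, against 46.2%). CCGGAAG was in 15.8% of the member windows and 11.6% of all, the NRF1 motif (GCGC, any 2 bases, GCGC) in 13.2% and 8.57%, TTTGAA in 18.4% and 16.0%, and TATAAA in 10.5% and 12.6%. Some windows of 1 gene overlap each other, GC-rich windows hold GC-rich motifs more often, and a match says only that the letters are there.

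**Figure D5:**
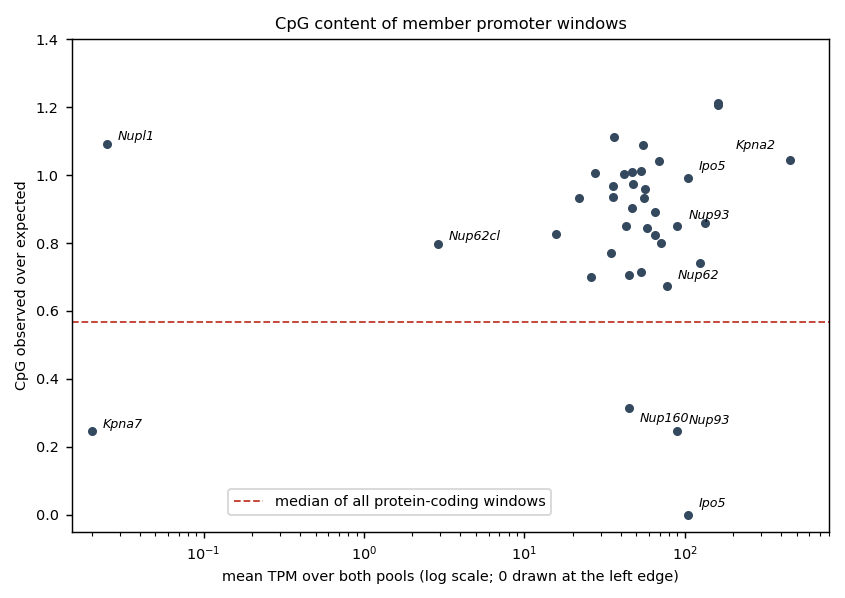
Observed over expected CpG of 38 promoter windows against the mean TPM of their gene (log scale, 0 drawn at the left edge); the dashed line is the median of all protein-coding windows. Most windows lie above the line, and those of Kpna7 and Nup160 and the second windows of Nup93 and Ipo5 lie below it. Few low genes have a window, namely Nup62cl, Kpna7 and Nupl1. The Nupl1 window also spans the start of Gm49336 (58.3 TPM), so its place on the level axis depends on the annotation.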

How the data were processed

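PolyA-plus RNA was sequenced in 2 pools of embryonic forebrain. Per the file headers and the sample notes, each library has gene and transcript tables from the authors, on mm10 with GENCODE M21 and with M4. The deposited expected counts are estimated reads, not normalised, with reads of several matches shared out. The deposited TPM values are the authors' abundances per 1e6 transcripts. The deposited posterior mean TPM was treated as a score. The column names match those of RSEM. Not given in the sources used here are the aligner, the quantifier and whether strand was used.

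Symbols, biotypes and coordinates came from GENCODE M21 (GRCm38). The 42 genes were set by symbol, each could be named, and of the other lists the 2 highest and the lowest by mean TPM, any undetected gene and partners of a named complex were named. The 5 forebrain markers used were named as well. Members and lists were chosen with earlier results of these data known. Roles were assigned by hand, and 1 gene of the forebrain marker list is not reported here. Detection meant at least 1 TPM in both pools. For the pool ratio, expected counts were rounded, genes under a mean count of 10 were left out, and edgeR 4.0.16 gave TMM factors (R 4.3.3, prior count 1), with DESeq2 1.42.0 size factors and spike-in totals as alternatives. No test of differences was made, because the labels give 1 group. The recovery of fold changes by the TMM ratio was tested on simulated data. Intervals are 95% Clopper-Pearson, and their coverage was not tested. Near-identical copies were found with blastn (at least 90% identity over 300 bases). Tables were joined with Python 3.11.15 and pandas 2.3.3. No p-value is reported for a difference between pools. Alternatives changed the annotation, the abundance estimate, the threshold, the transcripts counted, the scaling and the pool.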

Additional observations from a re-analysis of the deposited data

How the results depend on the processing

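The number of detected genes lay between 38 and 40 under every threshold, annotation and pool tried. The median level of the 42 genes was 47.83 TPM, 59.7 TPM when rescaled over nuclear protein-coding genes, 39.8 TPM in protein-coding transcripts only and, in an alternative chosen after seeing the data, 38.2 TPM in protein-coding transcripts of at least 1000 bases. It was between 46.5 and 49.8 TPM with 1 pool left out. The median log2 ratio of pool 1 over pool 2 (0.09) was -0.074 with spike-in totals and 0.076 from TPM with 1 added. Under spike-in totals 10 of 40 genes were higher in pool 1, in place of 30. The median over all protein-coding genes was then -0.15, so all genes shifted the same way, and their share higher in pool 1 was not computed. The count of genes over 25% apart (2) was 0 from TPM with 1 added, which shrinks low genes, and 0 without Nup62cl and Nup210l, left out after seeing the data. Without a filter on low counts, 1 gene (Nupl1) passed 1.5-fold, in place of 0. The median share in protein-coding transcripts (87.2% of TPM) was 95.5% of counts, and between 87.5% and 88.4% in single pools. The median share of the leading transcript (78.8%) was 91.9% of counts and 85.0% under M4, and between 76.7% and 77.3% in single pools. Motif TATAAA was in 2 windows in place of 4 with 150 bases before the start. Adding Gm49336 to Nupl1 and the copies to Kpna2, both chosen after seeing the data, moved those genes only. Of the 42 single levels, 40 moved by more than their spread over the pools when rescaled over nuclear protein-coding genes, 21 under M4, 10 with the posterior mean and 30 in protein-coding transcripts only. The causes were not tested beyond what these settings change by construction. No paired analysis was possible because both libraries belong to 1 group. With 2 pools, a spread has 1 degree of freedom, and Nup62cl and Nup210l rest on 120 reads or fewer per pool.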
